A study of Homo sapiens with 12 samples.

Results

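Keratins are the intermediate filament proteins of epithelial cells and hair. A type I (acidic) and a type II (basic) keratin pair to build each filament, and the pairs differ by tissue: KRT8 with KRT18 in simple epithelia, KRT5 with KRT14 in basal keratinocytes, and the hair keratins in the hair shaft. Keratin-associated proteins (KRTAPs) are small cysteine-rich or glycine- and tyrosine-rich proteins that cross-link hair keratins in the shaft. Melanocytes and melanoma cells normally use vimentin as their main cytoplasmic filament, although some melanomas also contain KRT8 and KRT18.

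The 131 keratin and keratin-associated protein genes described here were taken from the 14580 named genes of an Affymetrix array. They were chosen by symbol alone, as every gene named KRT or KRTAP with a number, so no measured value entered the choice, although earlier results of these data were known when the set was proposed. The pattern matched 139 genes, of which 7 pseudogenes and 1 antisense gene were set aside. Of the members, 47 are keratins and 84 are KRTAPs. The keratins comprise 16 type I and 18 type II epithelial keratins (the inner root sheath keratins counted among them), 10 type I hair keratins and 3 type II hair keratins. The KRTAPs comprise 37 of the high-sulfur, 29 of the ultrahigh-sulfur and 18 of the high glycine-tyrosine families. In the human genome they lie on chromosome 17 (25 keratins and 29 KRTAPs), chromosome 12 (22 keratins), chromosome 21 (44 KRTAPs) and chromosome 11 (11 KRTAPs).

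The arrays measured RNA from A2058 cells, an established human melanoma line, after 24 h in 4 groups of 3 arrays. The DTE group received dabrafenib (100 nM), trametinib (10 nM) and entinostat (1 µM) together, the DT group dabrafenib and trametinib at the same doses, the E group entinostat at the same dose, and the DMSO group the solvent. Dabrafenib inhibits RAF kinases, trametinib inhibits MEK, and entinostat inhibits class I histone deacetylases, so the comparisons ask what each treatment does to RNA levels and how the combination differs from its parts. The 3 arrays of a group are biological replicates by their titles but technical ones by the study's design text. The p-values here reflect the variation among arrays alone, and that may be technical. All values come from 1 cell line at 1 time point. In such bulk RNA, fewer cells using a gene and less RNA per cell cannot be told apart.

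Most members gave weak signals in every group. The lower quartile of the 14580 gene means on the log2 intensity scale was 2.99 in DTE, 2.91 in DT, 3.12 in E and 2.98 in DMSO, and 81 of the 131 members (61.8%) lay below it in all 4 groups, against 3226 of all 14580 genes (22.1%). In single groups 84 members lay below it in DTE, 85 in DT, 89 in E and 83 in DMSO. The shares below it in all groups ran across the classes, from 1 of 3 type II hair keratins and 8 of 16 type I epithelial keratins to 13 of 18 type II epithelial keratins and 13 of 18 high glycine-tyrosine KRTAPs. Background was not measured probe set by probe set, so a member below this quartile was not shown to be above background. Signals of different probe sets also depend on the probes, so the levels of different members are not ranked against each other.

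**Figure D1:**
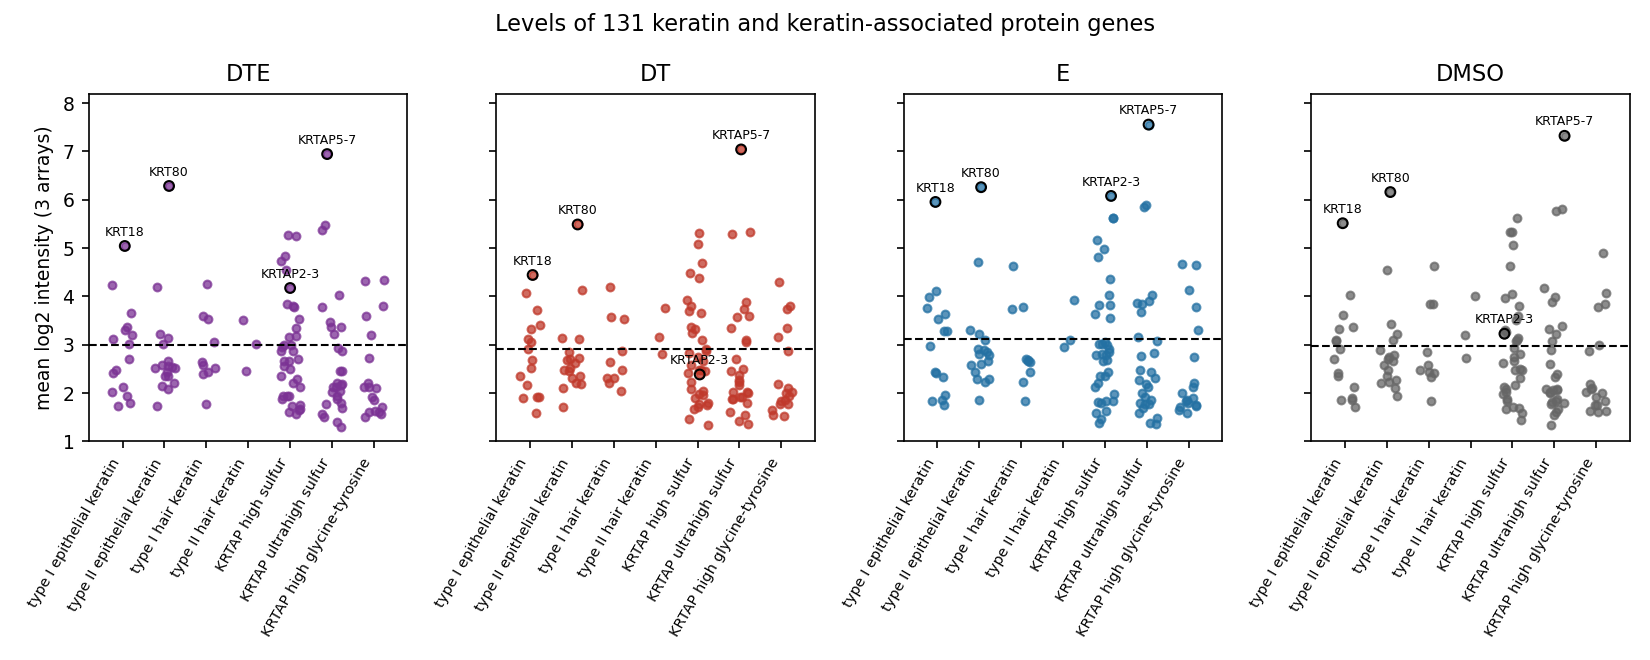
Mean log2 intensity of the 131 members in DTE, DT, E and DMSO (3 arrays each), 1 point per gene, by keratin or KRTAP class. The dashed line is the lower quartile of the 14580 genes in that group, and 84, 85, 89 and 83 members lie below it in DTE, DT, E and DMSO. KRT18, KRT80, KRTAP5-7 and KRTAP2-3 are ringed.

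The array medians over all genes averaged 4.66 ± 0.0448 (SD, n = 3) in DTE, 4.48 ± 0.106 in DT, 4.88 ± 0.0168 in E and 4.68 ± 0.111 in DMSO on the log2 scale. The melanocyte lineage markers were present: 7 of the 8 listed were measured, none lay below the lower quartile in any group, and their summed level per array on the log2 scale ran from 10.8 to 10.9 in DTE, 11.4 to 11.6 in DT, 10.5 to 10.7 in E and stood at 10.7 in DMSO. Of 6 keratinocyte markers other than keratins, 4 were measured. DSG3, DSC3 and PKP1 lay below the lower quartile in each group, SFN lay above it, none of the 4 was called in any of the comparisons, and the summed level ran from 4.72 to 4.93 in DTE, 4.51 to 4.83 in DT, 4.98 to 5.16 in E and 4.72 to 4.91 in DMSO.

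Few members were called relative to the rest of the array. The shares of all genes given here are not matched for level. Of the members 61.8% lay below the lower quartile in all groups, against 22.1% of all genes. Whether members were called less often than genes of like level was not tested. A gene is called here when its adjusted p is under 0.05 in limma's moderated test with Benjamini-Hochberg adjustment over all 14580 genes. In DTE against DMSO, 2 members rose and 7 fell, or 6.87% of the members, where 32.2% of all genes were called (9.64% higher and 22.5% lower). In DT against DMSO, no member rose and 8 fell, or 6.11% of the members, where 27.3% of all genes were called (3.23% higher and 24.1% lower). In E against DMSO, 7 rose and none fell, or 5.34%, against 16.1% of all genes (12.5% higher and 3.54% lower).

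The combination was also set against each part. In DTE against DT, 6 members rose and 1 fell, or 5.34%, against 18.9% of all genes (13.8% higher and 5.09% lower). In DTE against E, 1 rose and 12 fell, or 9.92%, against 24.5% of all genes (2.08% higher and 22.4% lower). In each of these 5 comparisons a smaller share of members than of all genes was called. The median log2 change of the members was -0.08 for DTE, -0.05 for DT and 0.03 for E against DMSO, beside -0.11, -0.17 and 0.07 for all genes, and it was 0.00 for DTE against DT and -0.11 for DTE against E, beside 0.06 and -0.19. The sign of so small a median depended on the scaling, since the members' median was 0.01 in DT and -0.04 in E after quantile normalization and 0.15 and -0.16 after median centring, while the median of all genes became 0.00 and -0.03, and 0.04 and -0.13. Altogether 26 of the 131 members were called in at least 1 of these comparisons and 105 in none. The share of all genes called in at least 1 comparison was not counted. It cannot be below the 32.2% called in DTE against DMSO alone. Of the 26, 16 lay at or above the lower quartile in every group and 7 below it in every group. KRTAP2-3 and KRT18 were the 2 members that changed at least 2-fold in any comparison, and the same 2 were called in all 5.

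Several of these counts depended on 1 array. Leaving out an array lessens the precision for every gene, and the counts of all genes under each omission are not given here. Whether the members lost more calls than other genes was not tested. The 8 falls in DT became 5 without DMSO replicate 1 or DT replicate 1, and the 7 rises in E became 3 without DMSO replicate 3 and 4 without DMSO replicate 1 or E replicate 2. In DTE against DMSO the 7 falls became 2 without DMSO replicate 2, 3 without DMSO replicate 1 and 4 without DTE replicate 1, and the 2 rises became 1 without DTE replicate 1. In DTE against E the 12 falls became 5 without E replicate 3 and 6 without DTE replicate 1, the single rise was lost without E replicate 1, and there were 2 without DTE replicate 1 or DTE replicate 3. In DTE against DT the single fall became 2 without DTE replicate 2. Of the 44 calls in all, 12 held under every alternative processing tried. After quantile normalization the rises and falls were 1 and 5 in DTE, 0 and 2 in DT and 2 and 1 in E against DMSO. Over all 14580 genes they were then 2065 and 2064, 1247 and 1146, and 1410 and 1232. After median centring the members' counts were 1 and 6, 6 and 3, and 2 and 7. Those of all genes were then 1604 and 3361, 1178 and 1743, and 1098 and 2372.

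**Figure D2:**
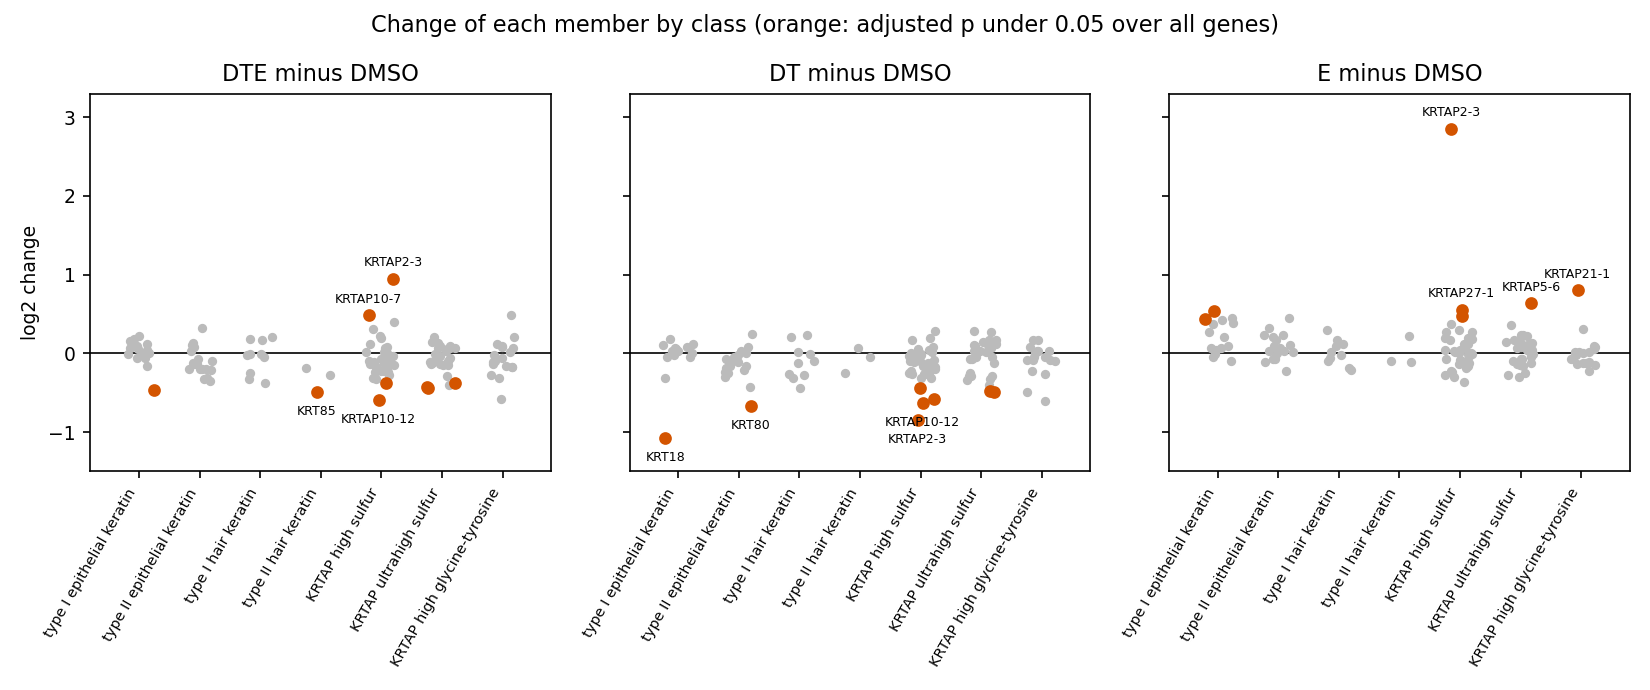
Log2 change of each of the 131 members against DMSO for DTE, DT and E, by class, 1 point per gene. Orange points passed the adjusted p of 0.05 over all genes (9 in DTE, 8 in DT, 7 in E) and grey points did not. KRTAP2-3 stands at 2.85 in E and KRT18 at -1.07 in DT, while the other members lie within 1 log2 unit of 0.

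KRTAP2-3, a high-sulfur KRTAP of the hair shaft, showed the largest change of any member in E, DTE and both comparisons of DTE with its parts. Its log2 intensities were 4.27, 4.63 and 3.63 in DTE, 2.81, 2.20 and 2.15 in DT, 6.29, 5.79 and 6.16 in E, and 3.06, 3.35 and 3.28 in DMSO. The 3 E arrays stood above all others, the 3 DTE arrays above DMSO, and the 3 DT arrays below DMSO, with no overlap between any of the groups. Group means were 4.18 ± 0.50 (SD, n = 3) in DTE, 2.39 ± 0.37 in DT, 6.08 ± 0.26 in E and 3.23 ± 0.15 in DMSO. The DT mean lay below the lower quartile of genes, so the size of changes measured from it is uncertain.

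KRTAP2-3 was 7.22-fold higher in E than in DMSO (log2 change 2.85, SE 0.216, adjusted p = 6.46e-08). It was higher in DTE than in DMSO by 0.95 on the log2 scale (adjusted p = 0.00243) and higher in DTE than in DT by 1.79 (adjusted p = 8.85e-06). It was lower in DTE than in E by 1.91 (log2 change -1.91, adjusted p = 5.45e-06). Dabrafenib and trametinib without entinostat gave a log2 change of -0.84 (adjusted p = 0.00712), which became -0.64 (adjusted p = 0.0645) when each array was centred on its median. The other 4 calls on KRTAP2-3 held under every alternative.

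The neighbouring copies of the same family were not called on the deposited scale. KRTAP2-1 averaged 1.94 ± 0.36 in DTE, 2.08 ± 0.17 in DT, 1.82 ± 0.31 in E and 2.18 ± 0.38 in DMSO. KRTAP2-2 averaged 1.76 ± 0.08 in DTE, 1.77 ± 0.16 in DT, 1.85 ± 0.27 in E and 2.08 ± 0.23 in DMSO. KRTAP2-4 averaged 1.61 ± 0.14 in DTE, 1.76 ± 0.13 in DT, 1.84 ± 0.09 in E and 1.72 ± 0.10 in DMSO. All 3 lay below the lower quartile in every group, and their log2 changes in E were -0.36 (adjusted p = 0.269), -0.23 (adjusted p = 0.342) and 0.12 (adjusted p = 0.585). After median centring KRTAP2-2 was called lower in E than in DMSO (log2 change -0.43, adjusted p = 0.0448) and KRTAP2-4 lower in DTE than in DT (-0.33, adjusted p = 0.0378). Whether these copies differed from KRTAP2-3 in their changes was not tested. The family's coding sequences are closely related, and which copies each probe set detects was not tested.

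**Figure D3:**
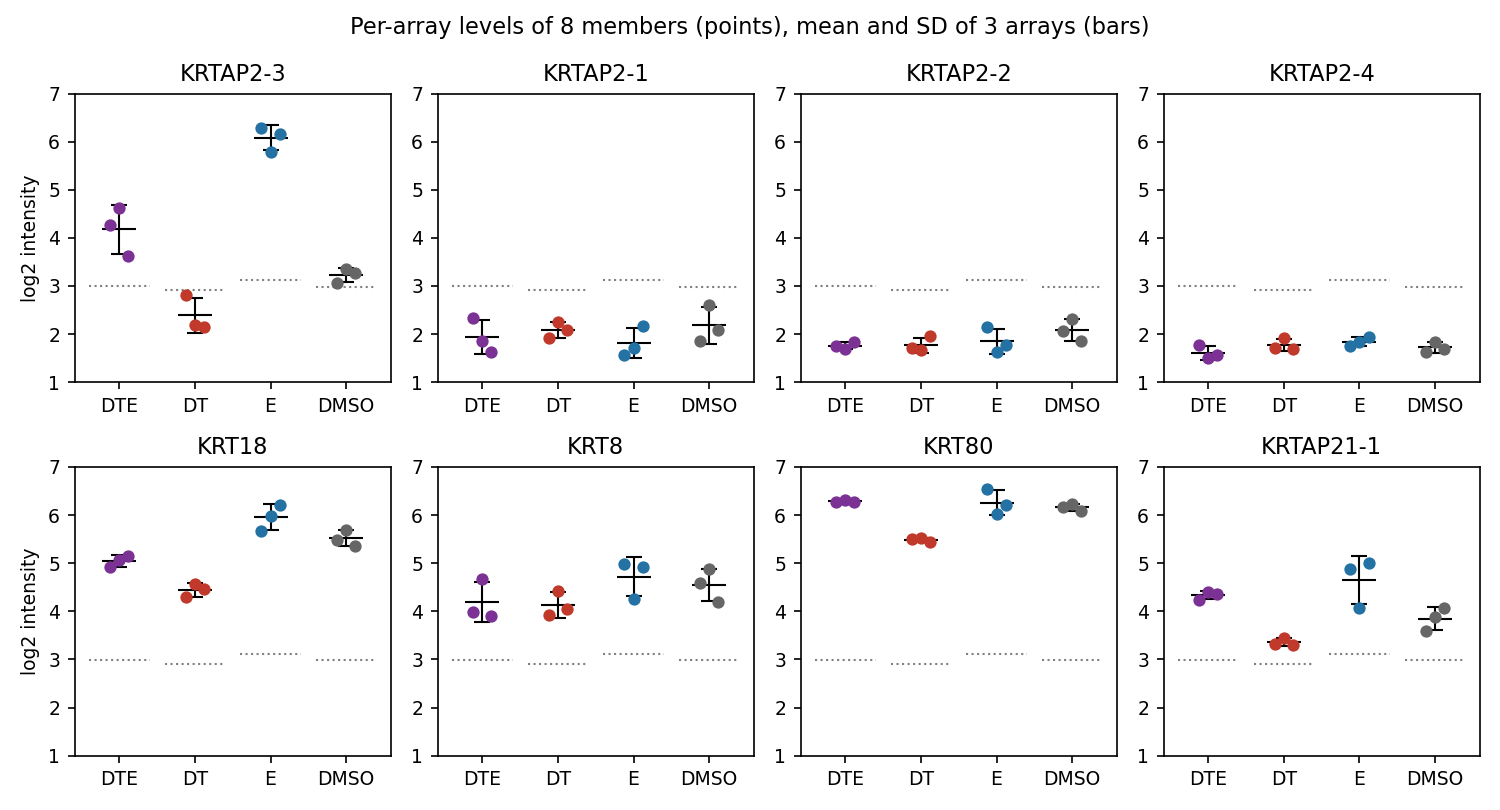
Log2 intensity on each array (points) for KRTAP2-3, the 3 other KRTAP2 genes, KRT18, KRT8, KRT80 and KRTAP21-1 in DTE, DT, E and DMSO, with the mean and SD of 3 arrays (black bars) and the lower quartile of genes in that group (dotted). KRTAP2-3 averaged 4.18, 2.39, 6.08 and 3.23 in DTE, DT, E and DMSO, and KRTAP2-1, KRTAP2-2 and KRTAP2-4 stay below the dotted lines.

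The 4 KRTAP2 genes lie side by side on the minus strand of chromosome 17, and the 250 bases before each RefSeq start are shown because KRTAP2-3 was called in all 5 pairwise comparisons and the other copies in none on the deposited scale. The windows are chr17:41060115-41060364 for KRTAP2-3, chr17:41047317-41047566 for KRTAP2-1, chr17:41055231-41055480 for KRTAP2-2 and chr17:41065880-41066129 for KRTAP2-4 in RefSeq's GRCh38.p14, written on the gene's strand from 5′ to 3′. Capitals mark the TATA box letters TATAAA.
KRTAP2-3: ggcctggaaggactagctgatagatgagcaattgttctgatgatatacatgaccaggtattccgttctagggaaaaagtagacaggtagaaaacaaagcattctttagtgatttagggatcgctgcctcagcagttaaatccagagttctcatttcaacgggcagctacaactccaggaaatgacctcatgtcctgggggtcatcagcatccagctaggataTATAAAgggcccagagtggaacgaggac
KRTAP2-1: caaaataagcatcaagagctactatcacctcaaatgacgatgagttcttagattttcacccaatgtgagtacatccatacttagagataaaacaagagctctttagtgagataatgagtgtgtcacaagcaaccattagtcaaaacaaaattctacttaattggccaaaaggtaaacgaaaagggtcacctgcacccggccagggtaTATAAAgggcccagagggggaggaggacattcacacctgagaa
KRTAP2-2: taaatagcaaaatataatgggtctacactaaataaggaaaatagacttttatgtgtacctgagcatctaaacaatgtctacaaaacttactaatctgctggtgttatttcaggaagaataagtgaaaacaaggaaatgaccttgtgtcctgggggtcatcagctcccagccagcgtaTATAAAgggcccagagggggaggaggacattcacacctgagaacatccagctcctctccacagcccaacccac
KRTAP2-4: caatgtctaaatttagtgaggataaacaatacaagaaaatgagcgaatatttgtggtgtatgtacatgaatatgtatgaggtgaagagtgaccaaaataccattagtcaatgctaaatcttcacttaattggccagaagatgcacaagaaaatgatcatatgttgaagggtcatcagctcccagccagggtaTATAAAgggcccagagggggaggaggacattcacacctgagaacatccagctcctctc
Each window holds the TATAAA run 1 time, beginning 28 bases before the annotated start in KRTAP2-3, 43 in KRTAP2-1, 73 in KRTAP2-2 and 58 in KRTAP2-4. In a local alignment the window of KRTAP2-3 shared 83.0% of 53 aligned positions with KRTAP2-1, 86.7% of 75 with KRTAP2-2 and 80.3% of 76 with KRTAP2-4, in the stretch around the TATA box. Searched on both strands, none of the 4 windows held TGANTCA (the AP-1 motif), CCGGAA (an extended ETS motif) or GGGCGG (the GC box read by Sp1). The shorter ETS core GGAA was not counted. The windows of KRTAP2-3 and of KRTAP2-2, a copy not called on the deposited scale, both hold it.

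A promoter entry was found for 102 of the 131 members, with 106 entries in all, and the others include KRT18, KRT80 and KRTAP21-1. TATAAA occurred on either strand in 67.9% of the members' windows, against 10.7% of the 35116 windows of all genes. TGANTCA occurred in 5.66% against 6.57%, CCGGAA in 2.83% against 14.5% and GGGCGG in 4.72% against 42.6%. These shares describe letters in windows of 250 bases and carry no test.

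Along the chromosome 17 cluster, on the deposited scale, KRTAP2-3 was the 1 of 29 measured KRTAPs called higher in E, where their log2 changes ran from -0.36 to 2.85 with a median of -0.01. It was also the 1 called higher in DTE against DT (range -0.37 to 1.79, median -0.04). Of the 25 keratins of the same chromosome, KRT23 was the 1 called in E (range -0.21 to 0.54) and KRT32 the 1 called in DTE against DT (range -0.25 to 0.42). The comparisons E against DMSO and DTE against DT share no arrays.

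**Figure D4:**
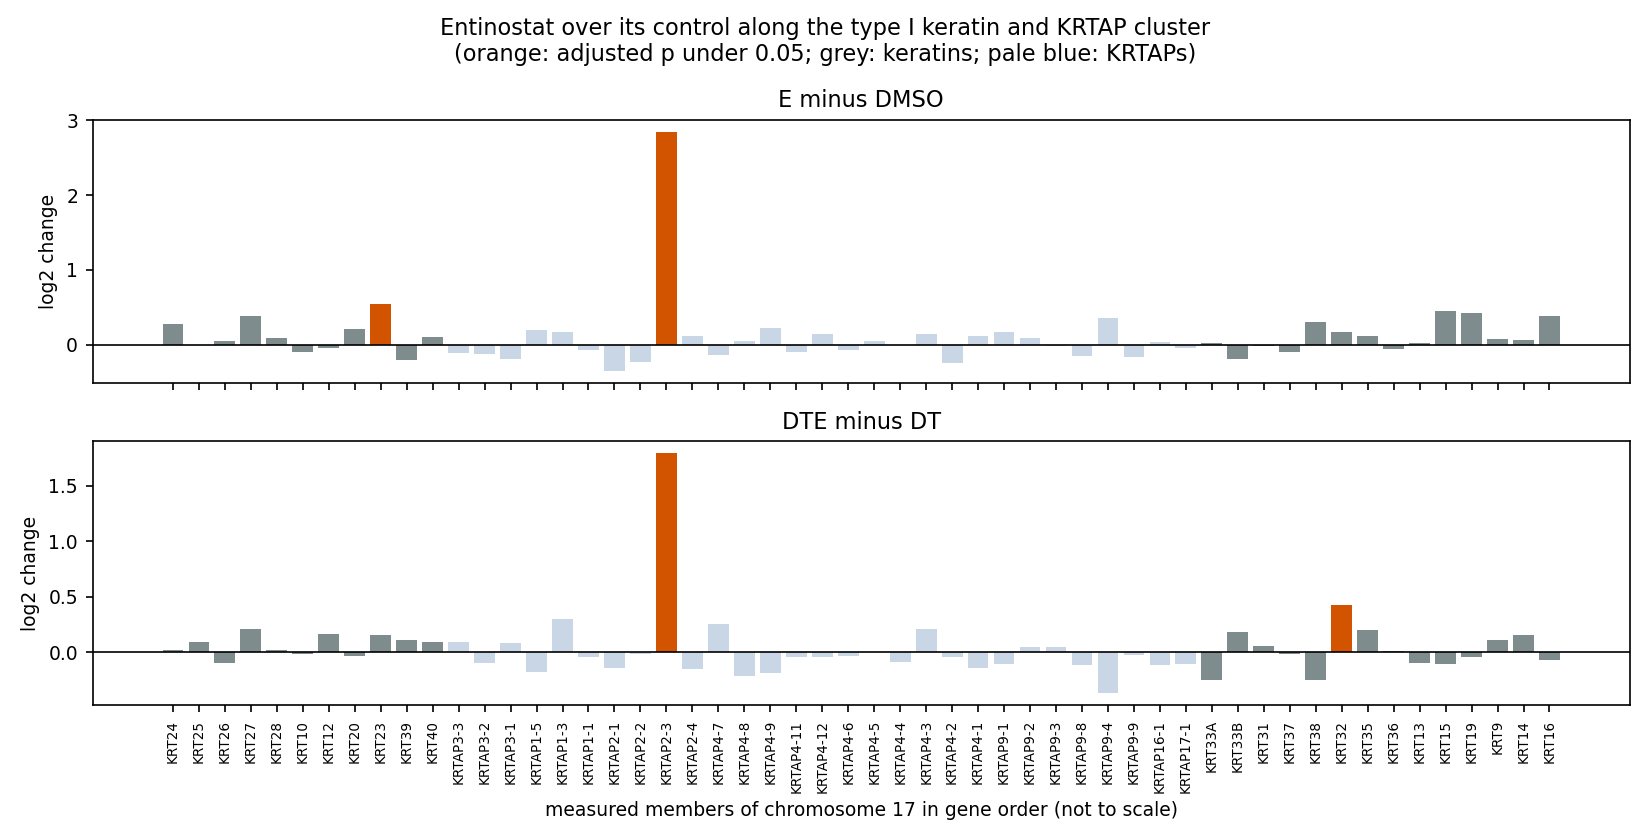
Log2 change of the 54 members of chromosome 17 in gene order (spacing not to scale), for E minus DMSO above and DTE minus DT below. Orange bars passed the adjusted p of 0.05, grey bars are other keratins and pale bars other KRTAPs. KRTAP2-3 stands at 2.85 and 1.79, and its KRTAP2 neighbours are not called on the deposited scale plotted here.

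KRT18, the type I keratin of simple epithelia, fell with dabrafenib and trametinib. Its log2 intensities were 4.92, 5.06 and 5.15 in DTE, 4.30, 4.58 and 4.46 in DT, 5.67, 5.99 and 6.21 in E, and 5.48, 5.70 and 5.37 in DMSO. The DT arrays were lower than the arrays of every other group, the DTE arrays lay between DT and DMSO, and the E arrays overlapped DMSO. KRT18 was 2.10-fold lower in DT than in DMSO (log2 change -1.07, SE 0.143, adjusted p = 2.36e-05). It was lower in DTE than in E by 0.91 (log2 change -0.91, adjusted p = 0.000203) and higher in DTE than in DT by 0.60 (adjusted p = 0.00549).

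The smaller KRT18 differences from DMSO were less stable. In DTE it had a log2 change of -0.47 (adjusted p = 0.0167), which became -0.38 (adjusted p = 0.0849) without DMSO replicate 2 and -0.41 (adjusted p = 0.0676) without DTE replicate 1. In E it had a log2 change of 0.44 (adjusted p = 0.0425). That call ended under 10 of 20 alternatives, among them quantile normalization (0.29, adjusted p = 0.109), and leaving out DMSO replicate 1 or 3, DT replicate 3, E replicate 2 or 3, or DTE replicate 2, with adjusted p of up to 0.218. The pseudogene KRT18P55, measured by its own probe set, averaged 4.24 ± 0.38 in DTE, 4.29 ± 0.13 in DT, 4.88 ± 0.17 in E and 4.56 ± 0.14 in DMSO, and was called in 1 comparison, lower in DTE than in E (log2 change -0.63, adjusted p = 0.009). The part of pseudogene transcripts in the KRT18 signal was not tested.

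KRT8, the type II partner of KRT18, was not called in any comparison. Its log2 intensities were 4.0, 4.68 and 3.91 in DTE, 3.92, 4.43 and 4.04 in DT, 4.99, 4.26 and 4.92 in E, and 4.58, 4.87 and 4.2 in DMSO. All groups overlapped DMSO, and the spread within each group was wider than for KRT18. The log2 change was -0.36 (SE 0.223, adjusted p = 0.253) in DTE, -0.42 (adjusted p = 0.177) in DT and 0.17 (adjusted p = 0.697) in E. Whether KRT8 and KRT18 differed in their changes was not tested.

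KRT80, a type II epithelial keratin of differentiating cells, was lower with dabrafenib and trametinib alone. Its log2 intensities were 6.28, 6.31 and 6.27 in DTE, 5.50, 5.52 and 5.45 in DT, 6.55, 6.03 and 6.20 in E, and 6.16, 6.24 and 6.08 in DMSO. The DT arrays lay below all the others, the DTE arrays lay just above DMSO, and the E arrays overlapped DMSO. The log2 change in DT was -0.67 (SE 0.128, adjusted p = 0.000769), and after quantile normalization it was -0.36 (adjusted p = 0.0742). KRT80 was higher in DTE than in DT by 0.80 (adjusted p = 0.000184), a call that held under every alternative. The log2 changes of 0.13 in DTE (adjusted p = 0.503) and 0.10 in E (adjusted p = 0.682) against DMSO did not pass the test.

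KRTAP21-1, a high glycine-tyrosine KRTAP of chromosome 21, was called both in E against DMSO and in DTE against DT, as KRTAP2-3 and KRT18 were. Its log2 intensities were 4.25, 4.41 and 4.37 in DTE, 3.31, 3.45 and 3.3 in DT, 4.88, 4.07 and 5.0 in E, and 3.60, 3.89 and 4.06 in DMSO. The DTE arrays were above DT on every array, and the lowest E array lay next to the highest DMSO array. It was higher in DTE than in DT by 0.99 (adjusted p = 0.000851) and in E than in DMSO by 0.80 (SE 0.186, adjusted p = 0.00583). The call in E ended after quantile normalization (0.59, adjusted p = 0.0579) and with the mean of its probe sets (0.45, adjusted p = 0.061). The gene's dimmer probe set did not follow, with 2.40 ± 0.283 in DTE, 2.40 ± 0.565 in DT, 2.57 ± 0.195 in E and 2.48 ± 0.217 in DMSO.

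Among the other keratins the called changes were small and mostly seen in DTE against E. KRT23, a type I keratin known from pancreatic cancer cells to respond to histone deacetylase inhibitors, averaged 3.21 ± 0.23 in DTE, 3.05 ± 0.21 in DT, 3.64 ± 0.13 in E and 3.09 ± 0.21 in DMSO. It was higher in E than in DMSO by 0.54 (adjusted p = 0.0167) and lower in DTE than in E (log2 change -0.43, adjusted p = 0.0429). KRT15, a keratin of basal keratinocytes and the hair follicle bulge, averaged 3.02 ± 0.26 in DTE against 3.53 ± 0.23 in E (log2 change -0.51, adjusted p = 0.0224). KRT71 and KRT75, keratins of the inner root sheath and the companion layer of the hair follicle, had log2 changes of -0.54 (adjusted p = 0.0112) and -0.37 (adjusted p = 0.0473) in DTE against E and lay below the lower quartile in all groups.

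The called hair keratins were KRT85, KRT83 and KRT32. KRT85, a type II keratin of the hair matrix and cortex, averaged 3.52 ± 0.08 in DTE, 3.76 ± 0.18 in DT, 3.92 ± 0.07 in E and 4.02 ± 0.03 in DMSO. It was lower in DTE than in DMSO (log2 change -0.49, adjusted p = 0.00322), a call that held under every alternative, and lower in DTE than in E (-0.39, adjusted p = 0.0209). KRT83, a type II keratin of the hair cortex, was lower in DTE than in E (-0.50, adjusted p = 0.038), and KRT32, a type I keratin of the hair cuticle, was higher in DTE than in DT by 0.42 (adjusted p = 0.019). Both KRT83 and KRT32 lay below the lower quartile in all 4 groups. The calls on these 7 keratins in DTE against E or DT, and that on KRT23 in E against DMSO, each ended under 3 to 13 of its 19 or 20 alternatives, among them median centring and leaving out at least 1 array in each case.

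The KRTAP10 genes of chromosome 21, high-sulfur KRTAPs known from the hair cuticle, included several called members. KRTAP10-12 averaged 4.74 ± 0.10 in DTE, 4.70 ± 0.34 in DT, 5.17 ± 0.12 in E and 5.33 ± 0.22 in DMSO. It fell in DTE (log2 change -0.59, adjusted p = 0.00669), which held under every alternative, and in DT (-0.63, adjusted p = 0.00536), which became -0.39 (adjusted p = 0.0579) after quantile normalization. KRTAP10-10 and KRTAP10-5 were lower in DT (-0.58, adjusted p = 0.0168, and -0.43, adjusted p = 0.0364). KRTAP10-6 was lower in DTE (-0.37, adjusted p = 0.0484).

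Other KRTAP10 genes were called in other comparisons. KRTAP10-7 was higher in DTE than in DMSO by 0.49 (adjusted p = 0.0306) and than in DT by 0.51 (adjusted p = 0.0363), from levels below the lower quartile in all 4 groups. KRTAP10-8 averaged 2.87 ± 0.12 in DTE against 3.37 ± 0.21 in DT (log2 change -0.51, adjusted p = 0.00959), a call that ended without DT replicate 3 (adjusted p = 0.0599). KRTAP10-4 was higher in E than in DMSO by 0.48 (adjusted p = 0.0223) and lower in DTE than in E (-0.41, adjusted p = 0.0371), from levels below the lower quartile in all groups. KRTAP10-2 was lower in DTE than in E (-0.51, adjusted p = 0.0117).

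The KRTAP10 and KRTAP12 genes measured here, 15 in all, lie inside TSPEAR, a gene expressed in the hair follicle, and whether their probe sets tell the strands apart was not tested. TSPEAR itself averaged 3.77 in DTE, 3.92 in DT, 4.06 in E and 4.07 in DMSO and was not called. Its log2 change was -0.30 in DTE (adjusted p = 0.0678), -0.15 in DT (adjusted p = 0.413) and -0.01 in E (adjusted p = 0.977). The part of TSPEAR transcripts in the signals of these members was not tested.

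Besides KRTAP2-3 and KRTAP21-1, the called KRTAPs outside that cluster were of the ultrahigh-sulfur and high-sulfur families. KRTAP5-7 averaged 6.95 ± 0.10 in DTE, 7.04 ± 0.28 in DT, 7.56 ± 0.05 in E and 7.32 ± 0.12 in DMSO. It was lower in DTE than in E (log2 change -0.61, adjusted p = 0.00378), which held under every alternative, and lower in DTE than in DMSO (-0.38, adjusted p = 0.0405). KRTAP9-2 averaged 5.38 ± 0.20 in DTE, 5.33 ± 0.18 in DT, 5.90 ± 0.15 in E and 5.82 ± 0.26 in DMSO, and was lower in DTE than in DMSO (-0.44, adjusted p = 0.0328), in DT than in DMSO (-0.48, adjusted p = 0.0221) and in DTE than in E (-0.52, adjusted p = 0.0187). KRTAP5-1 was lower in DT (-0.48, adjusted p = 0.0178) and KRTAP17-1 in DTE (-0.43, adjusted p = 0.0382).

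With entinostat alone KRTAP5-6 was higher by 0.64 (adjusted p = 0.0278) and KRTAP27-1 by 0.55 (adjusted p = 0.0336). KRTAP13-4 was the 1 member higher in DTE than in E, by 0.49 (adjusted p = 0.0147), from 1.88 ± 0.07 in DTE against 1.39 ± 0.19 in E, both below the lower quartile. The calls on KRTAPs other than KRTAP2-3 and KRTAP21-1, apart from the 2 said to hold, ended under 1 to 13 of 19 or 20 alternatives. KRTAP5-1 and KRTAP5-2 lie inside the antisense gene KRTAP5-AS1, which was measured and not called in any comparison.

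The 105 members called in no comparison had pairwise log2 changes of at most 0.61 in size, reached by KRTAP20-1 in DT (log2 change -0.61, adjusted p = 0.0808). They include the keratins that define keratinocyte layers. KRT14, the basal type I keratin, averaged 4.23 ± 0.24 in DTE, 4.07 ± 0.08 in DT, 4.10 ± 0.37 in E and 4.04 ± 0.23 in DMSO. Its basal partner KRT5 averaged 2.51 ± 0.18 in DTE, 2.46 ± 0.16 in DT, 2.66 ± 0.10 in E and 2.71 ± 0.33 in DMSO, below the lower quartile in each group. KRT10, of the suprabasal layers, averaged 3.31 ± 0.16 in DTE, 3.33 ± 0.11 in DT, 3.28 ± 0.04 in E and 3.38 ± 0.20 in DMSO, and its partner KRT1 lay below the lower quartile in each group. KRT31, a hair cortex keratin, averaged 4.26 ± 0.19 in DTE, 4.2 ± 0.72 in DT, 4.62 ± 0.28 in E and 4.64 ± 0.23 in DMSO. A p that misses the threshold does not show that these genes were unchanged.

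No member departed from additivity by the test, which asks whether DTE minus DT differs from E minus DMSO on the log2 scale. None of the 131 members was called, where 1.04% of all genes were called (0.562% higher and 0.473% lower). An unadjusted p under 0.05 was found for 16 of the 131 members and for 1683 of all 14580 genes. KRT80 had the largest positive departure, 0.70 (SE 0.181, unadjusted p = 0.0012, adjusted p = 0.0756), and passed the threshold after median centring (adjusted p = 0.0486) and without E replicate 1 (adjusted p = 0.0275). KRTAP2-3 had the largest negative one, -1.06 (SE 0.305, unadjusted p = 0.00272, adjusted p = 0.115), and passed without DTE replicate 2 (adjusted p = 0.0485). Its log2 change with entinostat was 1.79 in the presence of dabrafenib and trametinib and 2.85 in their absence. KRT18 showed 0.60 and 0.44 in that order, a difference of 0.16 (adjusted p = 0.828).

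The desmosome genes, whose products anchor keratin filaments at cell junctions, included genes that rose with entinostat and genes that fell with dabrafenib and trametinib. Of 24 listed, 17 were measured, and 4 rose and 2 fell in DTE, 1 rose and 5 fell in DT and 4 rose and none fell in E against DMSO, with median log2 changes of 0.01, -0.22 and 0.13 (-0.07 in E after median centring). That is 35.3% of them in DTE, 35.3% in DT and 23.5% in E, beside 32.2%, 27.3% and 16.1% of all genes. JUP (plakoglobin, which links desmosomal cadherins to desmoplakin) averaged 7.56 ± 0.18 in DTE, 5.64 ± 0.12 in DT, 7.45 ± 0.10 in E and 5.26 ± 0.07 in DMSO, with log2 changes of 2.30 in DTE (adjusted p = 2.58e-10) and 2.19 in E (adjusted p = 2.38e-09). DSP (desmoplakin, the protein that binds keratin filaments) rose by 0.86 in DTE and 0.85 in E, DSC2 by 0.50 and 0.43, and DSG2 by 0.43 and 0.72. DSC2 lay below the lower quartile in every group, and its rise in E became 0.23 (adjusted p = 0.173) after median centring. PLEC (plectin, a linker of intermediate filaments to hemidesmosomes and the cytoskeleton) fell, with log2 changes of -1.55 in DTE and -1.33 in DT. PKP4 averaged 6.63 ± 0.20 in DT against 7.55 ± 0.21 in DMSO. DST had a log2 change of -0.67 in DT (adjusted p = 0.00347, and 0.131 after quantile normalization). DSG2, which rose in DTE and E, had -0.47 in DT (adjusted p = 0.0152, and 0.635 after quantile normalization). After quantile normalization the rises and falls were 4 and 2 in DTE, 1 and 2 in DT and 4 and 0 in E, and after median centring 4 and 2, 1 and 3, and 3 and 1.

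Of 43 listed genes of the cornified envelope and hair follicle, 37 were measured, most of them weakly: 26 lay below the lower quartile in DTE, 22 in DT, 23 in E and 24 in DMSO. In DTE 3 rose and 3 fell, in DT none rose and 3 fell, and in E 6 rose and none fell, or 16.2%, 8.11% and 16.2% of them, beside 32.2%, 27.3% and 16.1% of all genes. The rises and falls were 3 and 2 in DTE, 2 and 2 in DT and 4 and 0 in E after quantile normalization, and 4 and 3, 4 and 2, and 4 and 0 after median centring. The median log2 changes were -0.04, 0.01 and 0.15, the last becoming -0.05 after median centring. FLG, which encodes filaggrin, the protein that bundles keratin filaments in the outer epidermis, averaged 5.50 ± 0.13 in DTE, 3.56 ± 0.33 in DT, 4.25 ± 0.21 in E and 3.52 ± 0.32 in DMSO. Its log2 change was 1.98 in DTE (adjusted p = 1.53e-07) and 0.73 in E (adjusted p = 0.00718, and 0.0871 after quantile normalization), and the departure from additivity was 1.21 (adjusted p = 0.02). The cornified-envelope precursor SPRR2A rose in E by 1.16 and had a departure of -1.32 (adjusted p = 0.0345). It lay below the lower quartile in DTE and DMSO. SPRR2D, of the same family, had the lowest log2 changes of the list in DTE and DT, -1.05 and -1.10. It averaged 2.69 ± 0.06 in DTE, 2.65 ± 0.31 in DT, 4.24 ± 0.25 in E and 3.74 ± 0.12 in DMSO. In E its log2 change was 0.49 (adjusted p = 0.036, and 0.245 after quantile normalization). SPRR2D lay below the lower quartile in DTE and DT. S100A3, a calcium-binding protein of the hair cuticle, had log2 changes of -0.38 in DTE (-0.31 with adjusted p = 0.0706 after quantile normalization), -0.89 in DT and 0.93 in E.

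Among 26 listed regulators of keratin and hair genes, 21 were measured, and 5 rose and 5 fell in DTE, 1 rose and 7 fell in DT, and 5 rose and none fell in E, or 47.6%, 38.1% and 23.8% of them, beside 32.2%, 27.3% and 16.1% of all genes. The median log2 changes were 0.01, -0.19 and 0.15, of which those in DT and E became 0.02 and -0.04 after median centring. TFAP2C (AP-2 gamma) had log2 changes of -1.46 in DTE and -2.29 in DT, and LEF1 (a Wnt effector that acts in hair matrix cells) had -1.25 and -1.56. DLX3, a homeobox factor of hair and epidermal differentiation, rose by 1.51 in DTE and 1.12 in E, from a DMSO level below the lower quartile. HOXC13, a direct regulator of hair keratin genes, rose by 0.59 and 0.74, and GRHL1, a regulator of desmosomal genes, by 0.54 and 0.81. GRHL3 averaged 3.33 ± 0.22 in DTE against 2.53 ± 0.38 in DMSO, with every DTE array above DMSO. It lay below the lower quartile in DT, E and DMSO. After quantile normalization the counts of the list in DTE were 7 higher and 4 lower, in DT 1 and 5, and in E 4 and 2. After median centring they were 5 and 5, 2 and 5, and 5 and 2.

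Several filament genes other than keratins fell in DTE and DT. Of 17 listed genes 10 were measured, and none rose and 7 fell in DTE, none rose and 5 fell in DT, and none rose and 1 fell in E, with median log2 changes of -0.48, -0.45 and -0.08. That is 70.0%, 50.0% and 10.0% of them, beside 32.2%, 27.3% and 16.1% of all genes called (22.5%, 24.1% and 3.54% lower). After quantile normalization 6 fell in DTE, 3 in DT and 2 in E, after median centring 7, 5 and 4, and none rose under either. NES (nestin) had log2 changes of -0.82 in DTE and -0.92 in DT. VIM (vimentin) averaged 9.62 ± 0.10 in DTE, 9.42 ± 0.08 in DT, 10.2 ± 0.02 in E and 10.0 ± 0.08 in DMSO, with log2 changes of -0.40 in DTE (adjusted p = 0.00932, and -0.13 with adjusted p = 0.243 after quantile normalization) and -0.60 in DT (adjusted p = 0.000537).

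**Figure D5:**
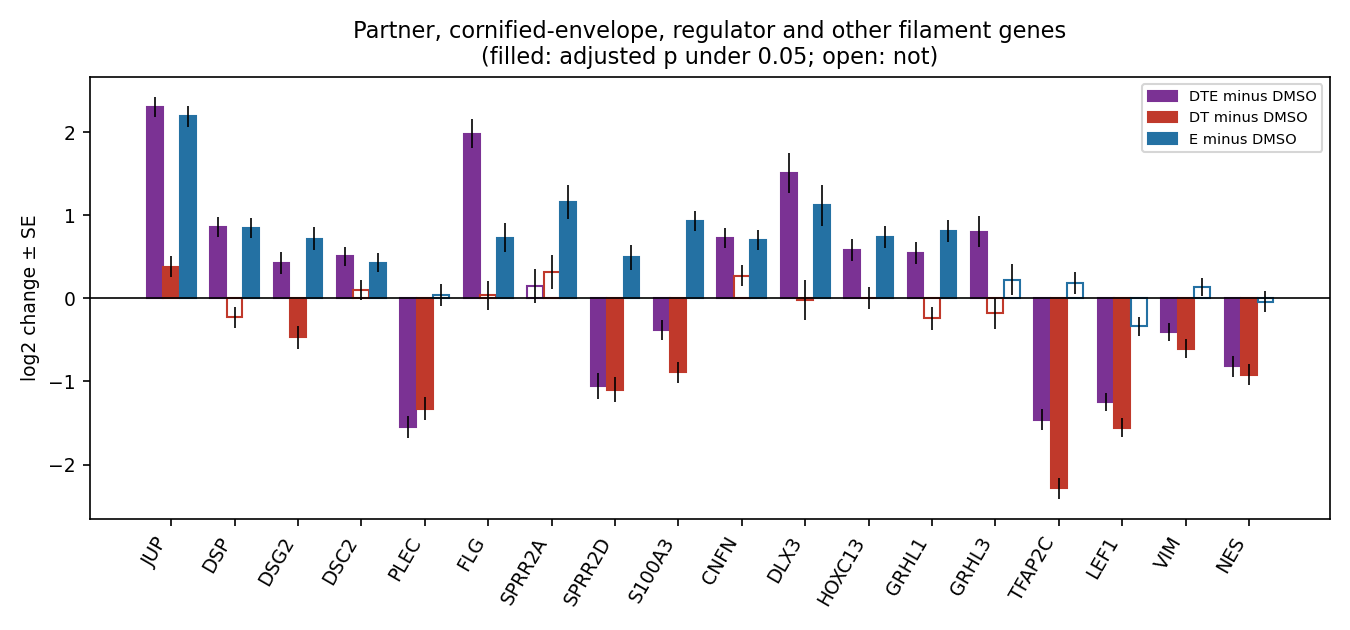
Log2 change (bars) with SE (lines) against DMSO in DTE, DT and E for genes of the desmosome, cornified envelope, keratin regulator and other filament lists. Filled bars passed the adjusted p of 0.05 and open bars did not. JUP stands at 2.30 in DTE, 0.38 in DT and 2.19 in E, and TFAP2C at -1.46, -2.29 and 0.18.

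Markers of other cell types were read on the same arrays. Of 6 simple epithelium markers 4 were measured, and their summed level per array on the log2 scale ran from 5.47 to 5.54 in DTE, 5.09 to 5.43 in DT, 5.95 to 6.09 in E and 5.22 to 5.56 in DMSO. In E both EPCAM (log2 change 0.73, adjusted p = 0.0013) and CLDN4 (1.07, adjusted p = 0.00201) rose, with levels of 3.66 ± 0.26 and 4.71 ± 0.17 in E against 2.93 ± 0.19 and 3.64 ± 0.32 in DMSO. In DTE 2 of the 4 rose, ESRP1 by 0.40 (adjusted p = 0.0147) and EPCAM by 0.49 (adjusted p = 0.0133). ESRP1 lay below the lower quartile in DTE, E and DMSO, and EPCAM in DMSO. In DT ESRP1 rose by 0.79 (adjusted p = 7.82e-05) and CLDN4 had a log2 change of -0.66 (adjusted p = 0.03), a call that ended after quantile normalization (-0.60, adjusted p = 0.124) and median centring (-0.46, adjusted p = 0.17). Of 6 fibroblast markers 2 were measured, LUM and DCN, and both rose in DTE (by 1.63 and 0.67) and in E (by 0.93 and 0.45). DCN lay below the lower quartile in every group, and its rise in E became 0.25 (adjusted p = 0.185) after median centring. Their summed level on the log2 scale ran from 8.68 to 9.15 in DTE, 7.34 to 7.79 in DT, 7.99 to 8.24 in E and 7.04 to 7.36 in DMSO. The 1 measured blood cell marker lay below the lower quartile in every group. The part of any of these in the changes of KRT18, KRT23 and KRTAP2-3 was not tested.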

How the data were processed

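RNA of the 12 arrays was labelled and hybridised by the submitters, and the deposited table holds 1 linear intensity for each probe set on each array, from 1.88 to 8728. The submitters' processing notes name RMA and the Transcriptome Analysis Console without versions. The array medians of the deposited values differ, so another scaling than plain quantile RMA may have been applied; per the labels an ERCC spike-in mix was added before extraction, but these sources do not state which, so changes are on the deposited scale. No array genome build was named in these sources. Depth does not apply to arrays, and their number, 3 per group, limits the precision.

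Of 29396 probe sets, 14748 had 1 gene symbol, 0 had several and 14648 were unnamed. Gene identifiers, which matched for all 14748, gave the current symbols. Of the 156 genes with several probe sets the brightest was used, which left 14580 genes, with no filter on dim ones. Intensities were converted to log2 values, and group means over all 12 arrays were fitted with limma 3.58.1 in R 4.3.3 (lmFit, contrasts, eBayes), adjusted by Benjamini-Hochberg over all genes within a comparison. The script was tested on simulated data. SDs are over 3 arrays, and SEs come from the fit.

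The members, the gene lists and the tests were chosen with earlier results of these data known. Every member called in any comparison is named. Those with at least a 2-fold change (1 log2 unit), KRT8, KRT18 and 2 further members, KRT80 and KRTAP21-1, chosen after their values were seen, are given array by array. Of the uncalled members a few with bright probe sets are named, with KRT1, KRT5, KRT10 and the other KRTAP2 genes added after their values were seen, and from each list up to 4 called genes each way. Alternatives were quantile normalization, median centring, a filter on dim genes, the mean of probe sets, all probe sets, an intensity trend, only the groups compared, a replicate block and leaving out each array. Promoter windows are the 250 bases before the RefSeq start in GRCh38.p14.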

Additional observations from a re-analysis of the deposited data

How the results depend on the processing

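The counts of changed members depended on the scaling between arrays. After quantile normalization the falls in DT were 2, the rises and falls in E 2 and 1, the rises in DTE against DMSO 1, the falls in DTE against DT 3 and the falls in DTE against E 4. After median centring there were 6 rises and 3 falls in DT and 2 rises and 7 falls in E. In DTE there was 1 rise against DMSO, 11 falls against DT, and 7 rises and 3 falls against E, with 1 departure above additivity. Of all 14580 genes, 1178 rose and 1743 fell in DT and 1098 and 2372 in E after median centring. In DTE against DT 1364 rose and 2245 fell, and in DTE against E 978 and 1007. After quantile normalization these last counts were 1786 and 1752, and 1019 and 851. With the filter on dim genes the rise in DTE against E was lost (0 members), because the filter removed KRTAP13-4. With all probe sets tested 4 members fell in DTE. Under median centring the members' median log2 change was 0.15 in DT, -0.16 in E, -0.17 in DTE against DT and 0.11 in DTE against E. Under the filter on dim genes it was -0.25 in DT, but over the 50 members that the filter kept, which is another set. The cause of the differences between scalings was not tested, although each scaling moves all values of an array. The filter tests fewer genes and fewer members.

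With each array left out in turn the rises and falls were 0 to 1 and 5 to 11 in DT, 3 to 8 and 0 to 0 in E, 1 to 3 and 2 to 8 in DTE, 4 to 7 and 1 to 2 in DTE against DT, 0 to 2 and 5 to 15 in DTE against E, and 0 to 1 and 0 to 2 for the departure from additivity. The counts of all genes with an array left out are not given here. The member median ran from -0.10 to -0.04 in DT, -0.0033 to 0.0804 in E, -0.11 to -0.04 in DTE, -0.02 to 0.04 in DTE against DT, -0.15 to -0.09 in DTE against E and -0.08 to 0.02 for the departure. KRT8, which was not called, changed sign in E after quantile normalization (-0.0312), after median centring (-0.0288) and without DMSO replicate 3 (-0.0069), with leave-one-out values up to 0.3996 without E replicate 2. Over the 969 alternative values of the named members, 789 kept their direction and side of the threshold, 174 lost the call, 3 gained one and 3 reversed.

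Same-numbered arrays shared little variation. Over 18 same-numbered pairs the deviations from the group means correlated between -0.0966 and 0.172, with 3 over 0.1. The share of all genes called was somewhat higher with the replicate block in each comparison, such as 29% against 27.3% in DT against DMSO. Whether the replicate numbers pair the arrays was not settled by these values. With the replicate block, 5 members rose in DTE against DMSO, and no other count moved by over 1.5 times.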
